A study of Mus musculus with 12 samples.

Results

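Hamp and Hamp2, the hepcidin paralogs of the mouse, were examined in liver RNA together with 8 genes of iron handling and of the signalling that sets hepcidin. These were Tfr2, Tfrc, Slc40a1, Trf, Fth1, Bmp6, Id1 and Smad7. The genes were chosen by symbol, all 10 were among the 24062 genes listed, and all 10 passed the filter on low counts that left 12015 genes to test. Whole liver of male mice aged 14 weeks, of a mixed 129SvEV-C57BL/6 background, was sequenced as 12 libraries. All groups carried floxed alleles of Nr5a2, the gene of the nuclear receptor LRH-1. In the knockout groups Cre recombinase was delivered with AAV8, a viral vector with a preference for hepatocytes, and the promoter that drives it is not given in the sources used here. Controls were floxed mice without Cre, which according to the series had been given AAV8 with eGFP. There were 3 control and 3 knockout libraries on a standard diet (SD) and 4 control and 2 knockout libraries on a high-fat diet (HFD, D12492), each diet given for 6 weeks.

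Hepcidin, the product of Hamp, is a peptide hormone of hepatocytes that binds the iron exporter ferroportin (Slc40a1) and causes its degradation, which lowers the entry of iron into plasma. Its transcription is raised by iron through BMP6, a ligand made mainly by liver endothelial cells, and SMAD transcription factors, and by inflammation through interleukin-6 and STAT3. Id1 and Smad7 are target genes of the same BMP-SMAD signal and are read as its activity in liver. Mice carry a second gene, Hamp2, beside Hamp, whose peptide is not known to regulate iron.

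The SD libraries held 2371167 to 3404570 counts and the HFD libraries 7463792 to 10875478. Rn45s, a ribosomal RNA gene, had 0.291% to 0.460% of SD counts and 0.985% to 1.32% of HFD counts, and diet and these differences between libraries cannot be told apart. Nr5a2 itself was not lower in libraries labelled knockout: its level in CPM (counts per 1000000 of the library size normalized by edgeR) was 74.8 to 85.8 in SD controls and 94.7 to 100.1 in SD knockouts (log2 fold change 0.24, standard error SE 0.11, edgeR adjusted p = 0.288). On HFD the ranges were 64.3 to 77.0 in controls and 69.1 to 84.5 in knockouts (0.12, SE 0.11, adjusted p = 0.719). Which exons the deletion removes is not given in the sources used here, and counts over a whole gene check only removed exons, so every direction given for the knockout rests on the labels. On the second principal component (11.3% of variance), HFD control 1 lay at -3.34, between the other HFD controls at 11.8 to 18.8 and the HFD knockouts at -24.4 and -20.6. Of 10 hepatocyte markers all were detected, and their sum was 131957 to 193736 CPM. Cholangiocyte markers summed to 51.4 to 53.9 CPM in SD controls and to 65.0 to 197 CPM in SD knockouts, with 0 of the 3 tested past the threshold, and their part in the results was not tested. In RNA of whole liver, fewer cells of a type and less RNA per cell cannot be told apart.

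The sequences before the 2 hepcidin genes are shown because Hamp and Hamp2 lie close together on the chromosome and differ at few bases, while their counts are read as separate genes below. Each is the RefSeq sequence of build GRCm38.p6, minus strand, 250 bases up to the annotated start, Hamp at chr7:30944030-30944279 and Hamp2 at chr7:30924182-30924431. Capitals mark matches to 3 motifs searched on both strands: GGCGCC, the core of the BMP response element; TTCNNNGAA, the STAT site; and TCAAGG, the first letters of an LRH-1 site.
Hamp: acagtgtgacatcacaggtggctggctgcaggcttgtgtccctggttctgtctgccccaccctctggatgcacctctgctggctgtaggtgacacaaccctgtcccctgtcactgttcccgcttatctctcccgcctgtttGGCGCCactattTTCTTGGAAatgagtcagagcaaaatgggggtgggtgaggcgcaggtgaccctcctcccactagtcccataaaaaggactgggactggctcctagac
Hamp2: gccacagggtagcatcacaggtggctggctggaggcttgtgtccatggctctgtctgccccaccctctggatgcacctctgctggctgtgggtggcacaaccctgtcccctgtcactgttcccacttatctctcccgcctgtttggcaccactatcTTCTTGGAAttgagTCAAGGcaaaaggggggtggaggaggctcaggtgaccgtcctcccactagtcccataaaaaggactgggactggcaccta

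Over 247 aligned bases these sequences were 91.9% identical, with 20 substitutions and a longest identical run of 40 bases. GGCGCC lay at -109 to -104 from the start of Hamp and was not in the Hamp2 sequence, where 1 substitution, G145A, fell in it (the Hamp base first, positions counted from 1 at the 5′ end of the Hamp sequence). A STAT site match with the same 9 letters, TTCTTGGAA, was in both, at -97 to -89 in Hamp and at -94 to -86 in Hamp2. TCAAGG was in Hamp2 only, at -80 to -75, where the substitutions were G171A and A172G. That motif was chosen after the sequences had been seen, while the longer form CAAGGNCA was in neither. Among 32851 RefSeq sequences of this length, GGCGCC was in 9.59%, TTCNNNGAA in 7.02%, TCAAGG in 12.5% and CAAGGNCA in 5.53%. A match is a description of letters and not a site of binding. The transcripts were 94.6% identical over 410 aligned bases (annotation of GRCm38, lengths 410 and 420 bases), with 22 substitutions and a longest identical run of 87 bases. Of the 50-base windows of Hamp, 16.6% were also in Hamp2, and of those of Hamp2, 19.5% were in Hamp or in 1 further gene. The longest run identical between the transcripts was under 100 bases, so reads shorter than the longest run could fit either gene. The read length is not given in the sources used here.

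Hamp and the transferrin gene Trf were the most abundant of the 10 genes per length. In SD controls, levels in CPM per kilobase of annotated exon were 3030 for Trf (range 2861 to 3234 over 3 libraries), 2735 for Hamp (559 to 4546), 390 for Fth1 (355 to 426), 62.0 for Hamp2 (32.2 to 78.0) and 42.7 for Tfr2 (37.3 to 45.7). Slc40a1 followed at 19.4 and Tfrc at 5.94. The 3 genes of the BMP signal were lowest, with Id1 at 2.13, Smad7 at 1.52 and Bmp6 at 1.50. The ranges of the neighbours Trf and Hamp overlapped, as did those of Hamp2 and Tfr2 and those of Id1, Smad7 and Bmp6, so their order is not set by these libraries. In SD knockouts Hamp2 was at 1.18 CPM per kilobase, below the means of the other 9 genes, and in HFD controls at 222, above Tfr2.

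Hamp passed the test on neither diet, and libraries of 3 of the 4 groups differed from each other by more than the group means did. On SD, Hamp was at 229, 1864 and 1272 CPM in controls and at 366, 687 and 1139 CPM in knockouts. SD control 1 was the lowest of these 6 libraries and SD control 2 the highest, 8.13-fold apart, so the groups overlapped completely (1122 ± 828 and 731 ± 389 CPM, mean ± standard deviation as throughout, n = 3 and 3). The log2 fold change was -0.62 (SE 0.58, 95% interval -1.85 to 0.61, edgeR adjusted p = 0.653). Leaving out SD control 1 gave -1.10, SD knockout 3 gave -1.09 and SD control 2 gave -0.04, and no alternative passed the test. On HFD, Hamp was at 1215, 769, 1265 and 1180 CPM in controls and at 260 and 1015 CPM in knockouts. The controls were within 1.65-fold of each other and the knockouts fell on either side of the lowest control (1107 ± 228 and 637 ± 534 CPM, n = 4 and 2). The log2 fold change was -0.80 (SE 0.63, interval -2.13 to 0.54, adjusted p = 0.643), and it was -2.09 without HFD knockout 2 (adjusted p = 0.246) and -0.12 without HFD knockout 1. Both intervals run from a large fall to a rise, so the data fix neither a change of Hamp nor its absence.

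Many acute-phase genes were lowest in the libraries with the least Hamp, a pattern described after the values were seen. Of 21 such genes, 12 were lowest in the library with the least Hamp in all 4 groups, as were 1.89% of the 12014 genes tested other than Hamp. It held in 3 groups for 5 genes, in 2 for Saa4, Orm3 and Cp, and in 1 for Crp. Crp was at 749 CPM in SD knockout 1, the SD knockout with the least Hamp, against 577 and 513 in the others. Saa1, an acute-phase apolipoprotein that hepatocytes induce under interleukin-6, was at 32.0 CPM in SD control 1 against 159 and 108 in the other SD controls, and at 26.7 in SD knockout 1 against 246 and 254 in the other SD knockouts. In the HFD groups it was at 11.9 in HFD control 2 against 94.0 to 510 in the other controls, and at 54.7 in HFD knockout 1 against 147 in HFD knockout 2. In each of the 4 groups the library with the least Saa1 was thus the library with the least Hamp. Lcn2, another acute-phase gene, was lowest in the same 4 libraries, at 0.781, 2.33, 3.72 and 14.9 CPM. Socs3, a feedback inhibitor induced by STAT3, was lowest in SD control 1 at 0.781 CPM against 6.43 and 5.19. In SD knockouts the library with the least Hamp had the most Socs3, at 8.00 CPM. In HFD controls Socs3 was lowest in HFD control 2, at 1.12 CPM against 1.72 to 3.20. In HFD knockouts it was lowest in HFD knockout 1, at 0.834 CPM against 2.34. The summed level of the 21 acute-phase genes was 19534 to 27013 CPM in SD controls, 16652 to 20620 in SD knockouts, 17942 to 24850 in HFD controls and 17909 and 20104 in HFD knockouts. The part of inflammation in the spread of Hamp was not tested.

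**Figure D1:**
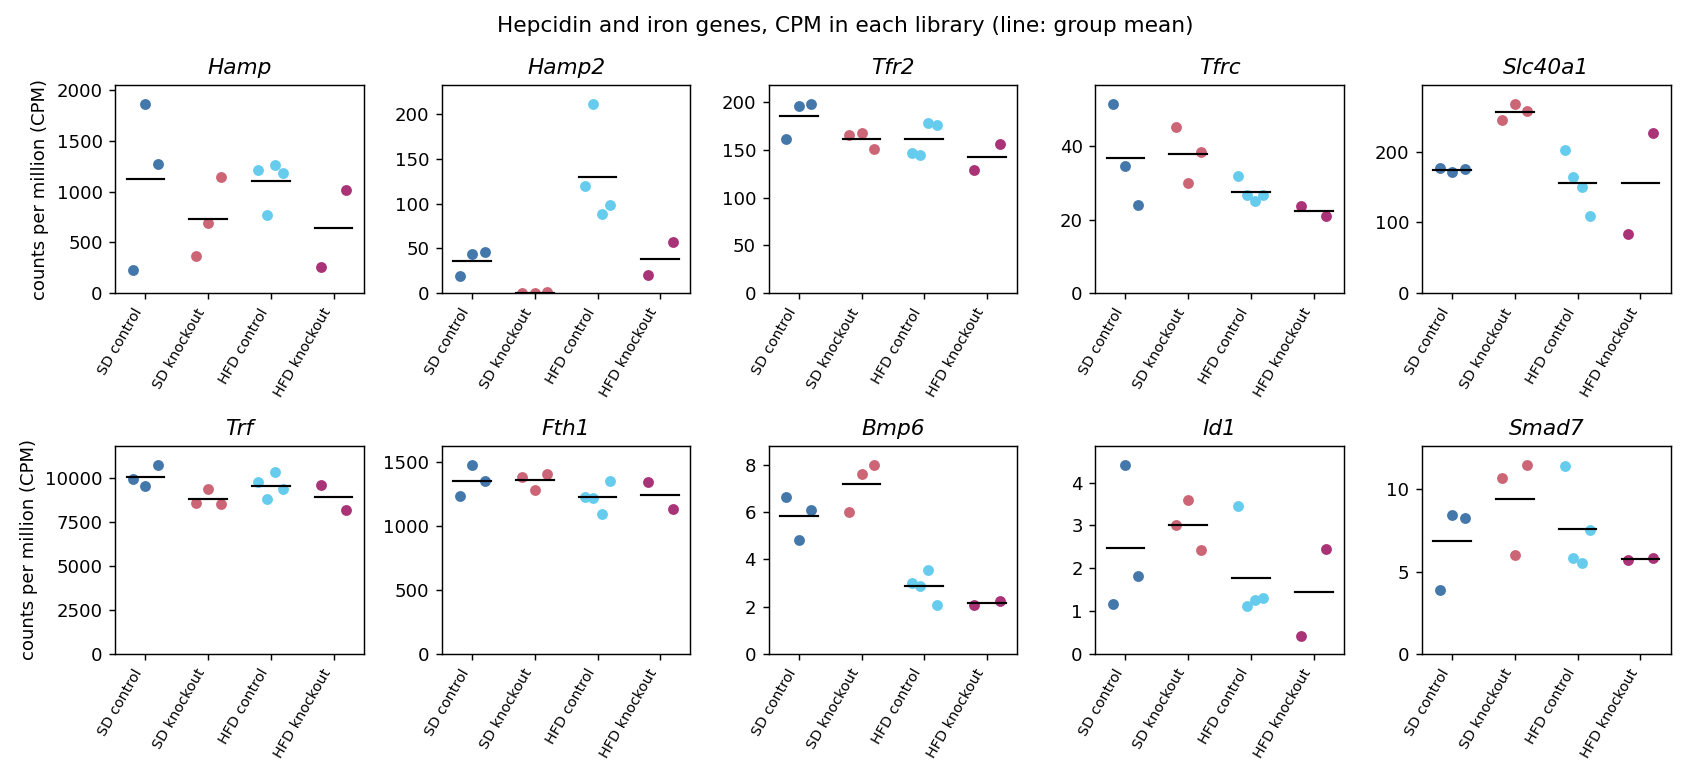
CPM of each of the 10 genes in the 12 libraries, 1 panel per gene with its own axis from 0, points coloured by group and bars at group means. Hamp ranged from 229 to 1864 CPM within SD controls, while Hamp2 was at 0 to 1.39 CPM in SD knockouts against 18.7 to 45.5 CPM in SD controls.

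Hamp2 was lower in knockouts on both diets. On SD it was at 18.7, 44.2 and 45.5 CPM in controls (48, 110 and 149 counts) and at 0.667, 0 and 1.39 CPM in knockouts (2, 0 and 4 counts). The groups were far apart, and in knockouts Hamp2 was at or near no count. The hepatocyte markers, from the cells that make hepcidin, summed to 146141 to 176693 CPM in these controls and to 142065 to 193132 CPM in these knockouts. The log2 fold change was -5.62 (SE 0.82, 95% interval -7.38 to -3.87, edgeR adjusted p = 0.00110). In summed counts, 307 in controls stood against 6 in knockouts, a ratio of 51.4 for the depth of the libraries (exact Poisson 95% interval 23.4 to 141, which covers counting error only). In 18 alternatives the log2 fold change lay between -6.57 and -5.13 and the adjusted p at or below 0.00876. The other 9 genes did not pass on SD. Of the 10 genes 0 were higher and 1, Hamp2, was lower, where 4.38% of all genes tested passed, 1.44% higher and 2.94% lower. The median log2 fold change was 0.03 over the 10 genes and 0 over all genes.

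On HFD, Hamp2 was at 119, 211, 88.8 and 98.0 CPM in controls and at 20.4 and 56.7 CPM in knockouts. Both knockouts were below the lowest control, and HFD control 2 was the highest library of all. The log2 fold change was -1.73 (SE 0.41, interval -2.61 to -0.85, edgeR adjusted p = 0.0341). This call rested on single libraries: the change was -1.39 without HFD control 2 (adjusted p = 0.0779), -1.18 without HFD knockout 1 (adjusted p = 0.375) and -2.66 without HFD knockout 2. It also missed the threshold with DESeq2 (adjusted p = 0.0989), with only the HFD groups in the fit (adjusted p = 0.112) and with libraries thinned to the smallest depth (adjusted p = 0.0584). Hepatocyte markers summed to 131957 to 136650 CPM in HFD controls and to 149256 and 193736 CPM in HFD knockouts. Endothelial markers summed to 422 to 477 and to 510 and 548 CPM, again without overlap, and the part of either in the change was not tested. Hamp2 was the 1 gene of the 10 that passed on HFD, and 0 were higher, where 2.7% of all genes passed, 1.04% higher and 1.66% lower. The median was -0.30 over the 10 genes and -0.01 over all genes.

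The share of Hamp2 in the counts of both paralogs does not depend on library size. In SD controls the share was 7.56% (exact Clopper-Pearson 95% interval 5.63% to 9.90%), 2.32% (1.91% to 2.79%) and 3.45% (2.93% to 4.04%). In SD knockouts it was 0.182% (0.0220% to 0.656%), 0% of 1717 counts (up to 0.215%) and 0.122% (0.0333% to 0.312%). Every knockout interval lay below every control interval, and the largest control share was that of SD control 1, the library with the least Hamp. On HFD the share was 8.94%, 21.6%, 6.56% and 7.67% in controls and 7.30% and 5.29% in knockouts, so the HFD groups overlapped. The log2 ratio of Hamp2 to Hamp differed by -5.41 on SD (two-sided exact permutation p = 0.1, the smallest that 3 against 3 libraries can give) and by -0.75 on HFD (exact permutation p = 0.4, smallest possible 0.0667). On HFD the design cannot pass the threshold for this ratio, and the shares of the knockouts lay within or just below those of the controls.

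**Figure D2:**
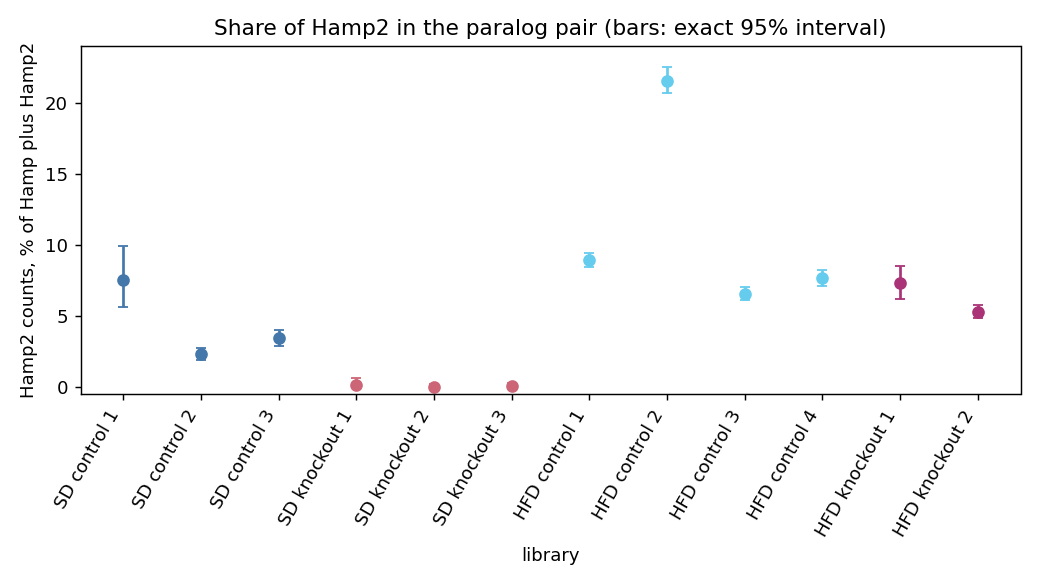
Hamp2 counts as a percent of Hamp plus Hamp2 counts in each of the 12 libraries, with exact 95% binomial intervals as bars. The 3 SD knockouts sit at 0% to 0.182%, below the SD controls at 2.32% to 7.56%, while HFD control 2 stands at 21.6%.

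Reads that counting could have split between the paralogs stay within their sum. Hamp plus Hamp2 changed by -0.66 on SD (SE 0.56, edgeR adjusted p = 0.610) and by -0.87 on HFD (SE 0.61, adjusted p = 0.591), close to the values of Hamp alone. At most 21.6% of the pooled counts in any library belonged to Hamp2.

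Tfr2, the transferrin receptor by which hepatocytes sense iron-loaded transferrin, was at 162, 196 and 198 CPM in SD controls and at 166, 168 and 151 CPM in SD knockouts. The knockouts fell within or just under the range of the controls (log2 fold change -0.20, SE 0.12, edgeR adjusted p = 0.458). On HFD it was at 147, 145, 179 and 176 CPM in controls and at 129 and 157 CPM in knockouts, with overlap (-0.18, SE 0.13, adjusted p = 0.608). Tfrc, the receptor that takes up transferrin iron and whose mRNA is stabilised when cells lack iron, was at 51.5, 34.6 and 24.1 CPM in SD controls and at 45.3, 30.0 and 38.3 CPM in SD knockouts. Its highest and its lowest SD libraries were both controls (0.06, SE 0.22, adjusted p = 0.932). On HFD it was at 32.0, 26.8, 25.1 and 26.8 CPM in controls and at 23.6 and 21.0 CPM in knockouts, which did not overlap but differed by less than the test resolves (-0.32, SE 0.22, adjusted p = 0.586). Groups did not overlap for 22.2% of all genes in this comparison.

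Slc40a1, the ferroportin gene, was at 177, 172 and 175 CPM in SD controls and at 245, 267 and 257 CPM in SD knockouts. Both groups were tight and every knockout was above every control, as was true in one direction or the other for 22.6% of all genes and for 3 of the 10 genes (Hamp2, Slc40a1 and Trf). The log2 fold change was 0.56 (SE 0.27, 95% interval -0.01 to 1.12), and it missed the threshold in the fit of all groups (edgeR adjusted p = 0.298). With only the SD groups in the fit it was 0.57 and passed (adjusted p = 0.00302). The HFD libraries, which enter the shared estimate of the spread, ranged widely: 202, 164, 150 and 109 CPM in controls and 83.9 and 227 CPM in knockouts. The HFD knockouts were the lowest and the highest of the 6 (-0.01, SE 0.28, adjusted p = 0.997), and leaving out the lower of them gave 0.54 and the higher -0.89. Ferroportin is also expressed by Kupffer cells, whose 13 markers summed to 300 to 465 CPM in SD controls and 335 to 450 in SD knockouts, and 0 of 13 passed in this comparison.

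Trf, which encodes the plasma carrier transferrin, was at 9946, 9500 and 10738 CPM in SD controls and at 8564, 9351 and 8481 CPM in SD knockouts. The knockouts were lower without overlap, by a small amount that did not pass (log2 fold change -0.19, SE 0.12, edgeR adjusted p = 0.433). On HFD it was at 8797 to 10319 CPM in controls and at 9591 and 8174 CPM in knockouts (-0.10, SE 0.12, adjusted p = 0.792). In the GRCm38 annotation, 69.4% of its 50-base windows are also part of other annotated genes, mostly the read-through gene Gm20425, so its counts depend on how the authors' annotation treats that gene. Fth1, the heavy chain of the iron store ferritin, was at 1231, 1477 and 1350 CPM in SD controls and at 1383, 1283 and 1403 CPM in SD knockouts. Its groups lay on top of each other, with a log2 fold change of 0.0042 (95% interval -0.24 to 0.25), and on HFD the value was 0.02 (interval -0.24 to 0.28). Ferritin is set largely at translation by iron regulatory proteins, which mRNA counts do not show.

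Bmp6, the endothelial ligand that raises hepcidin, was at 6.64, 4.82 and 6.10 CPM in SD controls and at 6.00, 7.60 and 8.01 CPM in SD knockouts. These overlapped (log2 fold change 0.29, SE 0.29, edgeR adjusted p = 0.676), as did the HFD groups with 2.99, 2.86, 3.55 and 2.08 CPM in controls and 2.08 and 2.23 CPM in knockouts (-0.41, SE 0.29, adjusted p = 0.600). Each library held 12 to 33 counts of it. Id1 was at 1.17, 4.42 and 1.83 CPM in SD controls and at 3.00, 3.60 and 2.44 CPM in SD knockouts, with 3 to 38 counts per library over all groups. Its counting error alone leaves the SD ratio of control to knockout between 0.424 and 1.51, and the log2 fold change was 0.30 (SE 0.69, adjusted p = 0.884). On HFD it was at 3.45, 1.12, 1.26 and 1.30 CPM in controls and at 0.417 and 2.46 CPM in knockouts (-0.29, SE 0.61, adjusted p = 0.898). The lowest Id1 value in SD controls, in HFD controls and in HFD knockouts came from the library with the least Hamp in that group, while in SD knockouts it came from the library with the most Hamp. Smad7, the inhibitory SMAD, was at 3.91, 8.44 and 8.24 CPM in SD controls and at 10.7, 6.00 and 11.5 CPM in SD knockouts (0.45, SE 0.37, adjusted p = 0.598). On HFD it was at 11.4, 5.83, 5.49 and 7.54 CPM in controls and at 5.70 and 5.80 CPM in knockouts (-0.41, SE 0.33, adjusted p = 0.646). For Id1 and Smad7 the knockout and control libraries overlapped on both diets, and neither gene passed. The parts of low counts and of spread between libraries in this were not tested.

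**Figure D3:**
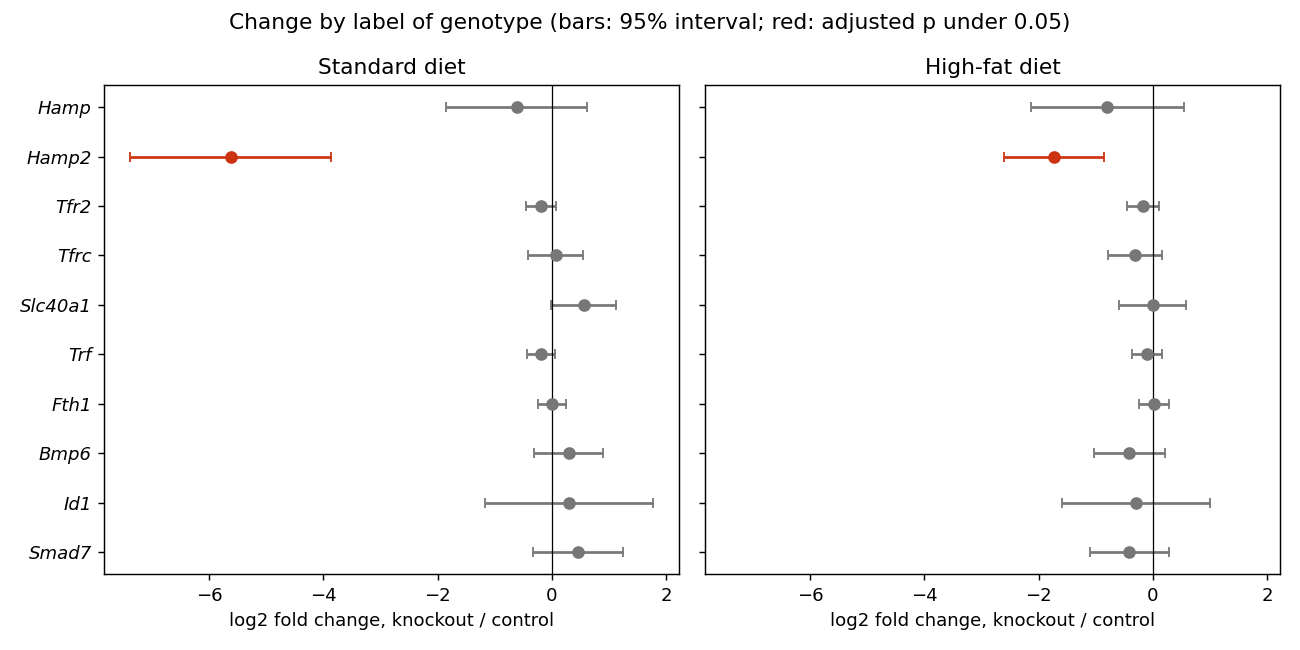
Log2 fold change of knockout over control for the 10 genes on SD (left) and HFD (right), with 95% intervals of the edgeR fit as bars and red for an adjusted p under 0.05. Hamp2 is the 1 gene in red on each diet, at -5.62 and -1.73, while the intervals of the other 9 genes reach 0.

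The wider pathway was read from 5 lists. Of the 21 genes of the BMP-SMAD arm (receptors, SMADs, coreceptors and inhibitors), 20 were tested, and 0 were higher and 0 lower in knockouts on either diet, with medians of 0.01 on SD and -0.08 on HFD against 0 and -0.01 over all genes. Over all genes 4.38% passed on SD and 2.7% on HFD. Without adjustment 4 of the 20 on SD and 3 on HFD had a p under 0.05, as did 17.6% and 14.0% of all genes. The closest to the threshold on SD was Tmprss6, the protease that lowers hepcidin by cleaving hemojuvelin, at 67.6, 83.6 and 79.0 CPM in controls and 56.0, 61.2 and 57.8 CPM in knockouts (log2 fold change -0.40, SE 0.12, edgeR adjusted p = 0.0878). Hfe2, the hemojuvelin gene and a BMP coreceptor, was at 44.9, 51.4 and 58.0 CPM in SD controls and 63.0, 76.9 and 67.9 CPM in SD knockouts (0.42, SE 0.14, adjusted p = 0.121). On SD the groups did not overlap for either gene, as for 22.6% of all genes, and neither passed. On HFD Tmprss6 was at 96.8 to 114 CPM in controls and 76.1 and 95.7 CPM in knockouts. These did not overlap, as for 22.2% of all genes, and did not pass (-0.32, SE 0.12, edgeR adjusted p = 0.221). Hfe2 overlapped on HFD (0.19, SE 0.14, adjusted p = 0.592).

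Of the 8 genes of the IL-6-STAT3 arm, 1 was higher and 0 lower on SD, where 4.38% of all genes passed. That gene was Il1r1, which is not a receptor of interleukin-6. Il6ra, Il6st, Jak1, Jak2, Stat3, Socs3 and Creb3l3 did not pass on SD in the main fit. Il1r1, the receptor of interleukin-1, rose from 125, 64.3 and 50.7 CPM in SD controls to 331, 232 and 186 CPM in SD knockouts (log2 fold change 1.65, SE 0.32, edgeR adjusted p = 0.00797). The groups did not overlap, but the call was lost without SD control 3 (1.39, adjusted p = 0.0539). Stat3 was at 120 ± 36.8 CPM in SD controls and 77.2 ± 10.2 CPM in SD knockouts (n = 3 and 3, edgeR adjusted p = 0.149, and 0.0352 without the filter on low counts). On HFD 0 of 8 passed, against 2.7% of all genes, and Il1r1 was at 73.9, 52.6, 116 and 80.7 CPM in controls and at 51.3 and 68.2 CPM in knockouts. The difference of its change between the diets was -2.08 (SE 0.46, edgeR adjusted p = 0.329). Without the filter on low counts it passed, at -2.07 (adjusted p = 0.00326).

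Of 20 genes of iron uptake, storage and export, 19 were tested, and 1 was higher and 0 lower on SD, against 4.38% of all genes. Scara5, a receptor for ferritin, rose from 12.5, 9.24 and 12.5 CPM in SD controls to 39.3, 40.4 and 38.7 CPM in SD knockouts (log2 fold change 1.78, SE 0.46, edgeR adjusted p = 0.0384). Although the 6 libraries separated cleanly, the adjusted p passed the threshold only with all of them: it was 0.0833 to 0.144 without any 1 SD library. Scara5 is also a gene of fibroblasts, and the summed level of 10 stellate cell and fibroblast markers was 353 to 416 CPM in SD controls and 467 to 550 CPM in SD knockouts, although 0 of 10 passed. The part of these cells in the rise of Scara5 was not tested. On HFD 0 of 19 passed, against 2.7% of all genes. The count was 2 without HFD control 1, where 602 of 11034 genes tested passed. It was also 2 without the filter, where 518 of 17849 did.

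Of 20 genes of haem handling, 19 were tested, and 1 was lower and 0 higher on SD, against 4.38% of all genes. Alad, the second enzyme of haem synthesis, fell from 57.8, 56.7 and 61.0 CPM in SD controls to 40.7, 39.6 and 40.1 CPM in SD knockouts (log2 fold change -0.55, SE 0.12, edgeR adjusted p = 0.0132). The adjusted p rose to 0.0557 without SD knockout 2, to 0.0613 without SD knockout 3 and to 0.0642 without SD control 3. Fech, the last enzyme of that pathway, was at 376 ± 19.5 CPM in SD controls and 303 ± 13.8 CPM in SD knockouts (-0.31, SE 0.10, edgeR adjusted p = 0.0903). With DESeq2 Fech passed (adjusted p = 0.0302). The median of the list was -0.19 on SD and -0.01 on HFD, against 0 and -0.01 over all genes. On HFD 0 of 19 passed, against 2.7% of all genes.

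Of 21 acute-phase genes, 2 were lower and 0 higher on SD and 1 was lower on HFD, where 4.38% and 2.7% of all genes passed. Without the filter on low counts these counts were 4 and 5, where 719 and 518 of all 17849 genes passed. The fibrinogen genes Fgb and Fgg fell on SD, Fgb from 4144 ± 959 to 2529 ± 340 CPM (log2 fold change -0.71, SE 0.19, edgeR adjusted p = 0.0390) and Fgg from 6133 ± 1172 to 3935 ± 424 CPM (-0.64, SE 0.17, adjusted p = 0.0416). Both calls were lost without any 1 SD library other than SD control 1, with adjusted p up to 0.175. On HFD Itih3, a heavy chain of the inter-alpha-trypsin inhibitor family, fell from 531, 502, 1084 and 1004 CPM to 213 and 322 CPM (-1.54, SE 0.31, adjusted p = 0.0139), which was lost without HFD knockout 1 (adjusted p = 0.231) and with only the HFD groups in the fit (adjusted p = 0.0749). The medians of the list were -0.23 on SD and -0.36 on HFD, against 0 and -0.01 over all genes. Saa1 passed in neither comparison. The genes Cp, Hp, Hpx, Lcn2 and Steap4 stood in 2 lists each.

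**Figure D4:**
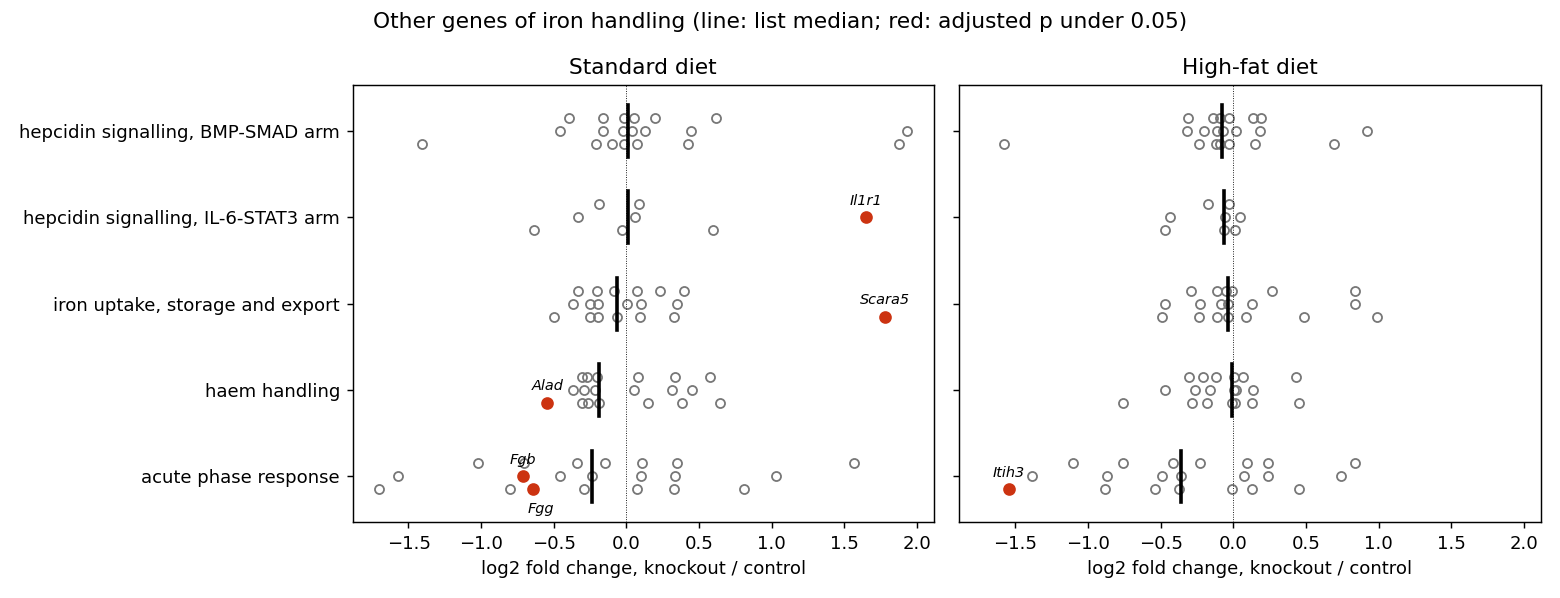
Log2 fold change of knockout over control for each tested gene of the 5 lists on SD (left) and HFD (right), with a point per gene, a bar at the list's median, and names and red for genes with an edgeR adjusted p under 0.05. On SD 5 genes are named (Il1r1, Scara5, Alad, Fgb and Fgg) and on HFD 1 (Itih3), and the BMP-SMAD arm has none.

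Whether the knockout effect differed between the diets was tested as an interaction. For Hamp2 the change on HFD minus that on SD was 3.89 (SE 1.05, 95% interval 1.66 to 6.12), with edgeR adjusted p = 0.398 and an unadjusted p of 0.00202. Without the filter on low counts its adjusted p was 0.0157 and with DESeq2 it was 0.0546, and the value lay between 2.96 and 4.83 over all alternatives. The size rests on 6 counts in the SD knockouts. Of the 10 genes 0 passed, and 0% of all 12015 genes did, although 911 had an unadjusted p under 0.05. DESeq2 called 17 genes. The other differences were -0.18 for Hamp (SE 0.84, adjusted p = 0.991), -0.56 for Slc40a1 (SE 0.39, adjusted p = 0.803), -0.70 for Bmp6 (SE 0.41, adjusted p = 0.763) and -0.86 for Smad7 (SE 0.49, adjusted p = 0.752).

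Between the diets, Hamp2 was higher and Bmp6 lower on HFD, in controls and in knockouts. In controls Hamp2 rose from 36.1 ± 15.1 CPM on SD (n = 3) to 129 ± 56.2 CPM on HFD (n = 4), with each HFD library above each SD library (log2 fold change 1.83, SE 0.38, edgeR adjusted p = 0.00187). In knockouts it rose from 0.687 ± 0.697 to 38.6 ± 25.6 CPM (5.72, SE 0.82, adjusted p = 9.47e-05, n = 3 and 2). Hamp was at -0.02 in controls (SE 0.54, 95% interval -1.16 to 1.12, edgeR adjusted p = 0.984) and at -0.20 in knockouts (SE 0.64, adjusted p = 0.857). The log2 ratio of Hamp2 to Hamp was higher on HFD by 1.44 in controls (two-sided exact permutation p = 0.114, smallest possible 0.0286) and by 6.10 in knockouts (exact permutation p = 0.1, the smallest possible). Neither difference of the ratio passed. In controls a rise of Hamp2 relative to Hamp is not shown by this test. In knockouts the test cannot pass the threshold with so few libraries, so it decides nothing there. The share of Hamp2 in knockouts was 0% to 0.182% on SD and 7.30% and 5.29% on HFD, without overlap. Bmp6 fell from 5.86 ± 0.933 to 2.87 ± 0.606 CPM in controls (-1.02, SE 0.26, adjusted p = 0.00834) and from 7.21 ± 1.06 to 2.16 ± 0.104 CPM in knockouts (-1.72, SE 0.32, adjusted p = 0.000909). The fall in controls missed the threshold once libraries were thinned to the smallest depth (-1.09, adjusted p = 0.0770). Endothelial markers, 12 genes of the cells that make BMP6, summed to 451 to 559 CPM in SD controls and 422 to 477 CPM in HFD controls. In knockouts their sums were 483 to 554 CPM on SD and 510 to 548 CPM on HFD.

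In controls 1 of the 10 genes was higher and 1 lower on HFD, where 30.1% of all genes passed, 16.5% higher and 13.6% lower. In knockouts 1 was higher and 2 lower, where 26.6% of all genes passed, 14.9% higher and 11.7% lower, and the second to fall was Tfrc, from 45.3, 30.0 and 38.3 to 23.6 and 21.0 CPM (log2 fold change -0.77, SE 0.24, edgeR adjusted p = 0.0279). That call was lost with thinned libraries (adjusted p = 0.0654) and without SD knockout 1, SD knockout 3 or either HFD knockout, with adjusted p up to 0.141. Groups did not overlap for 2 of the 10 genes in controls and for 5 in knockouts, against 37.2% and 52.7% of all genes. These are shares close to or below those of all genes. The diet groups differ in depth and in the share of ribosomal RNA, and for all these values diet and such differences cannot be told apart.

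Of 20 BMP-SMAD genes, 4 were higher and 6 lower on HFD in controls, where 30.1% of all genes passed (16.5% higher, 13.6% lower). The ligand gene Bmp2, like Bmp6 a hepcidin inducer from endothelial cells, fell from 42.1 ± 4.47 to 22.4 ± 2.65 CPM (log2 fold change -0.91, SE 0.17, edgeR adjusted p = 0.00102), and the receptor genes Bmpr2 (-0.50, SE 0.09) and Acvr2a (-0.44, SE 0.10) fell with it. Hfe2 rose by 0.64 (SE 0.13, adjusted p = 0.00156) and Furin, the protease that cleaves hemojuvelin and prohepcidin, by 0.43 (SE 0.09, adjusted p = 0.00241). In knockouts 1 was higher and 6 lower, where 26.6% of all genes passed, with Bmp2 at -0.92 (SE 0.21, edgeR adjusted p = 0.00431). Leaving out HFD knockout 1 leaves 1 such library. The fall of Bmp2 was then -0.54, and the calls of Bmp2, Bmpr2 and Acvr2a were lost. In the IL-6-STAT3 arm 0 of 8 passed in controls, against 30.1% of all genes. In knockouts 3 fell and 0 rose, against 26.6% of all genes. Il1r1 was at -2.06 (SE 0.36, edgeR adjusted p = 0.000623), while the calls of Il6st and Socs3 were lost in 8 and 3 of 18 alternatives. With thinned libraries the count was 1, where 2570 of 10412 genes tested passed. Without HFD knockout 1 the calls of Il6st and Socs3 were both lost.

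Of 19 genes of iron uptake, storage and export, 3 were higher and 2 lower on HFD in controls, where 30.1% of all genes passed, and 2 were higher in knockouts, where 26.6% passed. In controls the calls of Slc25a37, Slc39a8 and Slc39a14 were lost in 13, 11 and 8 of 18 alternatives. The count there fell to 2 without SD control 2, SD control 3 or SD knockout 2. It fell to 3 without SD knockout 3, without HFD control 1, 3 or 4, or with a replicate block. In these fits 2831 to 3593 of 11034 to 12579 genes tested passed. In knockouts the count was 4 without HFD control 2 or without the filter, where 3062 of 11063 and 3204 of 17849 genes passed. The largest values were those of Ncoa4, the receptor that carries ferritin to lysosomes, at 13.5 ± 2.16 CPM in SD controls and 401 ± 6.88 in HFD controls (log2 fold change 4.88, SE 0.14), and of Ftl1, the ferritin light chain, at 321 ± 63.5 and 1027 ± 29.7 CPM (1.68, SE 0.12). Both genes share much of their sequence with other annotated genes: 39.1% of the 50-base windows of Ncoa4 are also in Gm6768, and 86.2% of those of Ftl1 are in other genes, mostly Ftl1-ps1. Levels of such genes depend on how reads that fit several places were treated, so both values are uncertain. Fth1, with 3.59% of its windows shared, was at 1353 ± 123 CPM in SD controls and 1221 ± 105 CPM in HFD controls and did not pass (-0.15, SE 0.11, adjusted p = 0.329). In haem handling 5 of 19 were higher and 2 lower in controls, against 30.1% of all genes, among them Hp, the haemoglobin-binding haptoglobin gene, from 404 ± 45.7 to 1238 ± 374 CPM (1.61, SE 0.23, adjusted p = 6.29e-05), and Fech from 376 ± 19.5 to 240.4 ± 13.8 CPM (-0.64, SE 0.09, adjusted p = 5.64e-05). The 6 globin genes of the erythroid list had no count in any library, while that list as a whole summed to 30.7 to 62.4 CPM. Why the globin rows were empty was not tested, so they are not read as absence of blood RNA.

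No gene was among the 5 most like Hamp and also among the 5 most like Hamp2. After subtracting the mean of each diet from log2 CPM, the 5 genes of highest Pearson r with Hamp, among 11902 genes, were Clu (0.94), Zfp688 (0.92), Cd300lb (0.91), Fgfrl1 (0.90) and Ppdpf (0.89). Only 0.294% of genes had an r above 0.8 with Hamp. Clu, the secreted chaperone clusterin, was at 750 CPM in SD control 1 against 1015 and 949 CPM in the other SD controls, and at 583 CPM in HFD knockout 1 against 685 CPM in HFD knockout 2, so it was low where Hamp was low. Zfp688 and Cd300lb stood at or under 2.81 CPM in every library and rest on few counts. The 5 genes most like Hamp2 were Qdpr (0.97), Tlcd2, Rnf43, Pemt and Abcg5 (0.94 each), and 2.85% of genes had an r above 0.8. Qdpr, which encodes the dihydropteridine reductase that regenerates tetrahydrobiopterin, was at 174, 217 and 222 CPM in SD controls and 91.3, 76.4 and 82.2 in SD knockouts, and at 112 to 156 CPM in HFD controls and 73.8 and 90.5 in HFD knockouts. Abcg5, a subunit of the sterol exporter of bile, was at 64.0 to 102 CPM in SD controls and 18.7 to 33.4 CPM in SD knockouts. Since genotype was not removed, genes that differ between the labelled genotypes score high with Hamp2. With Hamp, the other members had an r of 0.66 for Tfr2, 0.64 for Id1, 0.49 for Smad7, 0.37 for Hamp2, 0.29 for Slc40a1, 0.11 for Fth1, 0.08 for Bmp6, 0.07 for Trf and -0.42 for Tfrc. All these r values describe 12 libraries that differ in depth and labelled genotype, and no test was made.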

How the data were processed

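Liver RNA was sequenced in 12 libraries, prepared from Trizol extracts with a Nugen Ovation kit per the labels' protocols. The files the authors deposited hold raw counts, 1 whole number per gene, and TopHat2 2.1.0, HTSeq and DESeq2 1.14.1 with build mm9 are named in the submitters' processing notes. Not given in the sources used here are the strand setting, the read length and what was done with reads that fit several genes. Nothing in the labels states that each library is a different mouse, and p-values therefore measure only spread among libraries, which may be technical.

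The main test was edgeR 4.0.16 (quasi-likelihood, in R 4.3.3 with limma 3.58.1): TMM normalization, filterByExpr with a minimum count of 10, 4 group means over all 12 libraries, and two-sided p-values adjusted by Benjamini-Hochberg over the 12015 genes tested. The common biological coefficient of variation was 0.153, and the threshold was an adjusted p of 0.05. CPM use TMM-normalized library sizes, and standard errors (SE) are of log2 fold changes. The log2 ratio of Hamp2 to Hamp used a pseudocount of 0.5. Likeness between genes used log2 CPM with a prior count of 2, over genes of at least 1 CPM on average. The procedure was checked on simulated counts with known changes. Results of the 10 genes, the summed pair, the list genes that passed and 6 others named on SD or between diets were recomputed. This was done with DESeq2 1.42.0, with RLE factors, without the filter and with only the groups compared. It was also done with libraries thinned to 2371167 counts, with a replicate block and without each library. The number of the 10 genes that passed was also recomputed with Hamp and Hamp2 summed. Intervals of shares and count ratios cover counting error only.

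The 10 genes, the 5 lists and the markers were chosen with earlier results of these data known. By rule the text names the 10 genes, up to 5 genes per list and comparison that passed (smallest p first), and the 5 genes most like each hepcidin gene. Hfe2 and Tmprss6 in the knockout comparisons, Stat3, Fech on SD, Saa1, Lcn2 and Socs3 fall outside that rule and were named after their values were seen. Promoter sequences come from the RefSeq table of GRCm38.p6, which held 6 of the 10 genes. Exon lengths and shared windows come from the GENCODE annotation of GRCm38. Neither is the authors' build, and gene rows were matched by symbol only.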

Additional observations from a re-analysis of the deposited data

Results flagged for a closer look

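Among 11 sets of HFD control values examined (10 genes and the share of Hamp2), in groups of 4 libraries where chance sets apart about 1 in 20, 2 held a library far from the others. Id1 was at 3.45 CPM in HFD control 1, against 1.12 to 1.30 CPM in the other HFD controls. HFD control 1 also lay apart from the other HFD controls on the second principal component. Without it, the HFD change of Id1 went from -0.29 to 0.30 on the log2 scale. The share of Hamp2 in the paralog pair was 21.6% in HFD control 2, against 6.56% to 8.94% in the other HFD controls. That library had the most Hamp2 (211 CPM) and the least Hamp (769 CPM) of the HFD controls. Without it the HFD change of Hamp2 was -1.39 (edgeR adjusted p = 0.0779).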

How the results depend on the processing

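Of 886 recomputed values for 50 gene results, 821 kept their direction and side of the threshold, 11 lost the call, 7 gained one and 47 turned direction. The fall of Hamp2 on SD and its rises on HFD passed in every alternative that kept the paralogs apart. The number of the 10 genes that passed on SD was 1, with 2 when only the SD groups were fitted and 0 with the paralogs summed. Summing leaves Hamp2 without a row of its own, so its call cannot appear in any count given here for summed paralogs. Those counts therefore say nothing on whether the calls of Hamp2 hold. On HFD it was 1, with 0 under DESeq2, under only the HFD groups, under thinning, with the paralogs summed, and 0 to 1 with single libraries left out. For the difference between diets it was 0, with 1 without the filter. For diets in controls it was 2, with 1 under thinning, 1 with the paralogs summed and 2 to 3 with 1 library left out (Tfrc passed without SD control 3, edgeR adjusted p = 0.0282). For diets in knockouts it was 3, with 2 to 4 over the alternatives and 2 to 3 with 1 library left out. There Slc40a1 passed without the filter, with the replicate block and without HFD knockout 2 (-1.60, edgeR adjusted p = 0.000462), and Smad7 under thinning (-1.40, adjusted p = 0.0400).

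Over all genes, 325 passed on HFD, with 127 when only the HFD groups were fitted, 518 without the filter and 85 to 602 with 1 library left out. On SD 526 passed, with 220 to 655 with 1 library left out. Deviations of same-numbered libraries from their group means had an r of -0.01 to 0.12. Other pairs of libraries were not compared, so these values cannot decide whether the numbers pair libraries. With the replicate block 595 genes passed on SD and 227 on HFD. Hamp2 was then at -5.61 on SD and -2.00 on HFD, and Hamp between diets in controls was at 0.42.

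Changes of sign were of values near 0 or with large errors. On the log2 scale they were, without the filter, Fth1 on SD (-0.0071) and Hamp between diets in controls (0.016), and, under thinning, Id1 between diets in controls (0.055). With 1 library left out, values ranged on SD from -0.18 to 0.39 for Tfrc, -0.056 to 0.071 for Fth1 and -0.0070 to 0.96 for Id1. On HFD they ranged from -0.89 to 0.54 for Slc40a1, -0.22 to 0.010 for Trf, -0.10 to 0.14 for Fth1, -2.08 to 0.42 for Id1 and -0.030 to 0.26 for Nr5a2. For the difference between diets they ranged from -1.47 to 0.50 for Hamp, -1.48 to 0.46 for the summed paralogs, -0.12 to 0.16 for Tfr2, -0.023 to 0.20 for Trf, -0.10 to 0.14 for Fth1 and -2.38 to 0.11 for Id1. Between diets they ranged in controls from -0.49 to 0.57 for Hamp, -0.37 to 0.67 for the summed paralogs, -0.97 to 0.27 for Id1 and -0.14 to 0.33 for Smad7, and in knockouts from -1.49 to 0.49 for Hamp, -1.38 to 0.56 for the summed paralogs and -0.091 to 0.13 for Trf. The cause was not tested. Leaving out 1 HFD knockout leaves 1 such library, assumed to vary like the others. Counts per library were low for Id1 (3 to 38), Bmp6 (12 to 33) and Smad7 (10 to 126), and their part in these ranges was not tested.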
